A study of Mus musculus with 3 samples.

Results

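Matrix metalloproteinases are described here through 10 genes, Mmp2, Mmp3, Mmp9, Mmp10, Mmp11, Mmp13, Mmp14, Mmp16, Mmp19 and Mmp23, in the stromal, tumour, osteoclast and myeloid cells of mouse calvaria, the roof of the skull. The members were chosen by gene symbol from the 31053 genes of the deposited tables, and all 10 were found. Single-cell RNA was counted in 3 libraries, 1 per group, from C57BL/6 mice 8 weeks old. The control library came from mice without tumour. For the scratch-negative library, squamous carcinoma cells of the mouse line HNM007 had been placed on intact calvaria, and the labels call this stage pre-invasive. In the scratch-positive library the bone had first been scratched with a 21 G needle, which strips off the periosteum, and the labels call this stage invasive. Both tumour libraries were taken 1 week after implantation, with the tumour mass cut away. In every library live CD45+ cells (CD45 is the product of Ptprc and marks immune cells) and CD45– cells were mixed in equal numbers. The number of mice behind a library is not given in the sources used here. No library of scratched bone without tumour was analysed here, so the scratch, the missing periosteum and invasion cannot be told apart in scratch-positive. With 1 library per group there is no estimate of the spread between mice and no test, and every interval below is a 95% interval that covers counting error only.

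Matrix metalloproteinases are zinc-dependent endopeptidases that cut collagens, proteoglycans and other matrix proteins, and also release growth factors and cytokines. Most are made as inactive proenzymes, which lose their propeptide outside the cell or, where a furin site is present, on the way to the surface. Tissue inhibitors of metalloproteinases, the TIMPs, block the active site. In bone, osteoclasts are known for Mmp9, and hypertrophic chondrocytes and osteoblast-lineage cells for the collagenase Mmp13. Fibroblasts are known for Mmp2 and for the membrane-bound Mmp14, which activates proMmp2 and proMmp13. In squamous carcinomas, stromal cells and cells of the invading edge are known sources of stromelysins and collagenases.

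Levels are given as CPM, the unique molecular identifiers (UMIs, counted molecules) of a gene scaled to 1000000 UMIs of all genes in the cells of a class and library. After filtering, 6179 control, 7590 scratch-negative and 8426 scratch-positive cells remained, with medians of 8864, 11261.5 and 36437.5 UMIs. A UMI of Ptprc was held by 89.5%, 84.1% and 48.3% of these cells, so the kept cells did not show the same mix in the 3 libraries. Between 16 and 30 cell barcodes were shared by any pair of libraries. Fibroblasts numbered 69, 590 and 438 in control, scratch-negative and scratch-positive, and cells of the osteoblast lineage or marrow stroma 61, 61 and 15. The latter class is called the osteoblast lineage below, but its leading genes include Cxcl12 and Adipoq beside Bglap and Ibsp. A level there can thus belong to marrow stroma. Carcinoma cells numbered 1, 208 and 3783, osteoclasts 26, 84 and 870, and monocytes/macrophages 384, 703 and 912. Neutrophils numbered 4467, 4408 and 1527. Cluster 3, led by Ccl4, Ccl3 and Cxcl2, best matched neutrophils but stayed unnamed for its low depth. Its 8, 417 and 445 cells are not in the neutrophil numbers, levels or shares. Classes are "-like" cells named from marker genes, with no Mmp gene used for clustering or naming. All 12 fibroblast markers and all 9 osteoclast markers were detected in their classes in each library, whereas carcinoma cells of scratch-negative held 11 of 12 carcinoma markers, Krt5 being at 0. Markers of neutrophils were also counted in other classes. The 10 markers summed to 504195, 525122 and 486052 CPM in neutrophils, to 36111, 36055 and 5020 CPM in fibroblasts, and to 48132, 59891 and 5678 CPM in osteoclasts. In carcinoma cells the sum was 29527 CPM in scratch-negative and 1100 CPM in scratch-positive. In B-lineage cells, which serve here as a measure of free RNA, Mmp9 was at 68.2, 89.8 and 45.2 CPM and Mmp14 at 3.92, 4.99 and 0 CPM.

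Mmp13, Mmp3 and Mmp10 lie in the family's gene cluster on mouse chromosome 9. Of the Mmp genes in the deposited tables, 9 lie there within 427072 bases (7272514 to 7699585, GRCm38). These 3 members are on the plus strand: Mmp13 at 7272514 to 7283331, Mmp3 at 7445822 to 7455975 and Mmp10 at 7502352 to 7510240. Their promoters are shown because in fibroblasts Mmp10 and Mmp13 were higher, and Mmp3 lower, in scratch-positive than in scratch-negative. Below are the 150 bases before each RefSeq start (GRCm38.p6, plus strand), 5′ to 3′. Capitals mark TGANTCA, the motif of AP-1 transcription factors, which reads the same on both strands, and ACCACA, the reverse strand of the Runx core TGTGGT.
Mmp13, chr9:7272364-7272513: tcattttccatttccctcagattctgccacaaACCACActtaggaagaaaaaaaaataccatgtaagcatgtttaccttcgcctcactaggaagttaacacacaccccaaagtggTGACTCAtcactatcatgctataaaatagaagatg
Mmp3, chr9:7445672-7445821: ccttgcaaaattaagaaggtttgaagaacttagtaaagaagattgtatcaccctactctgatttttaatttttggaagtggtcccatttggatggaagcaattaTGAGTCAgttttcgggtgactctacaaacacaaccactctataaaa
Mmp10, chr9:7502192-7502341: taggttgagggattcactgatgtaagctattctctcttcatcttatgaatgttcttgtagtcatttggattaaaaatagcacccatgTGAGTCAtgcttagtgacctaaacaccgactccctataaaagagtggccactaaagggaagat
All 3 hold TGANTCA, 35 bases before the start in Mmp13, 46 in Mmp3 and 63 in Mmp10. Only Mmp13 among these 3 holds the Runx core, 118 bases before the start, and the motifs do not overlap. Over the RefSeq promoters, windows of 250 bases before the start, TGANTCA was found in 6.73% (2189 of 32536) and TGTGGT on either strand in 14.0% (4543). Promoters were matched for 6 of the 10 members. Of the others matched, Mmp14 (chromosome 14, 54431612 to 54445364, plus strand) holds the Runx core 114 bases before its start and no TGANTCA. One of the entries of Mmp23 (chromosome 4, 155650655 to 155653384, minus strand) holds the Runx core 177 bases before its start. Mmp11 (chromosome 10, 75923222 to 75936496, minus strand) holds neither motif. A match is a description of letters and not a binding site.

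Each member had a characteristic place among the classes. Mmp2 and Mmp23 were first in fibroblasts in every library, followed by the osteoblast lineage where it could be measured. Mmp13, Mmp11 and Mmp16 were first in the osteoblast lineage in control and scratch-negative, although for Mmp16 its interval met that of fibroblasts in control. Mmp9 ran in the order osteoclasts, neutrophils, monocytes/macrophages in all 3 libraries, without overlap of the intervals. Mmp14 was first in fibroblasts and second in osteoclasts in all 3, again without overlap. Mmp3 was first in fibroblasts throughout. Mmp10 was first in carcinoma cells in scratch-negative and in fibroblasts in scratch-positive. Mmp19 was first in monocytes/macrophages in both tumour libraries, while in control its intervals in fibroblasts, osteoclasts and monocytes/macrophages overlapped.

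**Figure D1:**
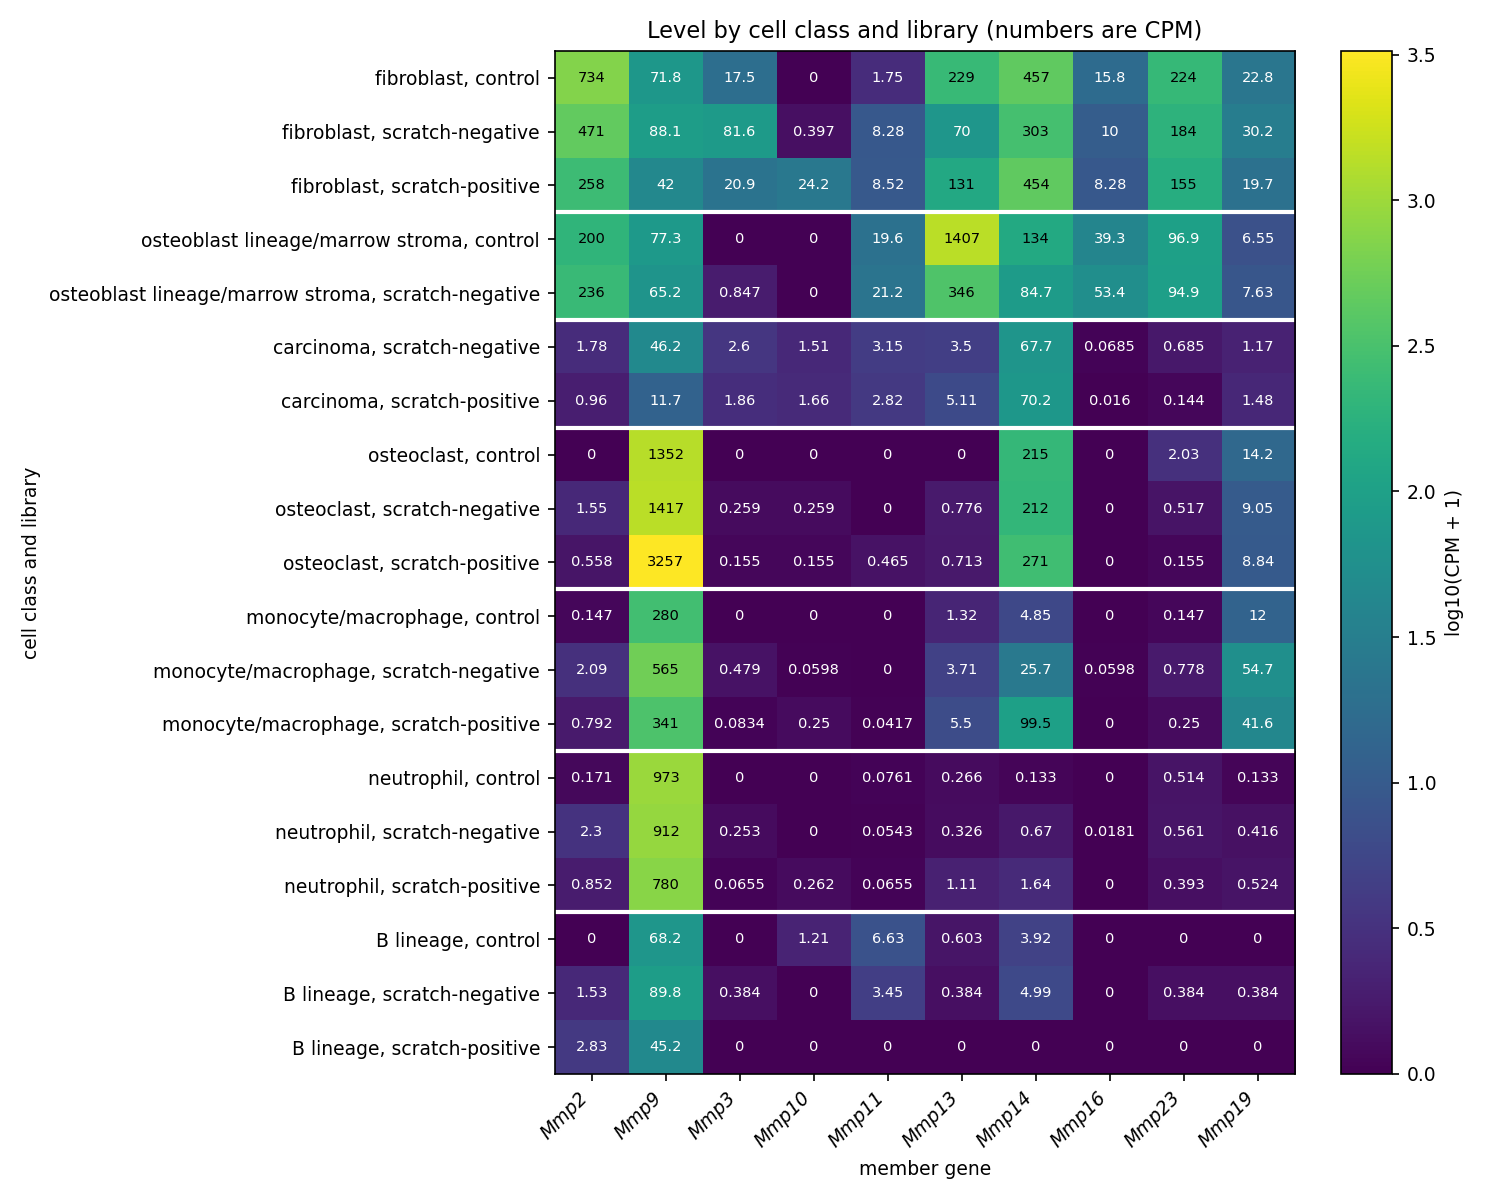
Level of each of the 10 members (columns) in each cell class and library (rows); numbers are CPM and colour follows the level on a log scale. Mmp9 fills the osteoclast and neutrophil rows (1352 to 3257 CPM and 780.5 to 973 CPM), Mmp2, Mmp14 and Mmp23 the fibroblast rows, and Mmp13 is highest in the osteoblast lineage of control (1407 CPM).

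Levels of the same member were compared between libraries within a class. A member was called higher or lower where the ratio was at least 1.5-fold with its whole interval on that side of 1, with at least 10 UMIs in both libraries together and at least 25 cells in each. Comparisons over control share 1 control library. In fibroblasts 4 of 9 members tested were called between scratch-negative and control, 1 higher and 3 lower, against 24.1% of all genes (7.84% higher, 16.2% lower). Between scratch-positive and scratch-negative 6 of 10 were called, 2 higher and 4 lower, against 27.9% of all genes (11.3% higher, 16.6% lower). Between scratch-positive and control 4 of 10 were called, 1 higher and 3 lower, against 31.9% (12.5% higher, 19.4% lower). In the osteoblast lineage 2 of 8 were lower in scratch-negative than in control (15.2% of all genes lower) and 0 higher (3.39%). Carcinoma cells of scratch-positive had 3 of 9 members lower than those of scratch-negative (12.9% lower) and 0 higher (3.44%). In osteoclasts 0 of 3 were called between scratch-negative and control (10.7% of all genes, 4.19% higher and 6.49% lower), and 1 of 6 was higher in scratch-positive than in scratch-negative (8.83% higher, 10.2% lower) and than in control (11.0% higher, 12.7% lower).

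Monocytes/macrophages had 5 of 6 members higher in scratch-negative than in control (9.82% of all genes higher, 7.95% lower). The 5 were Mmp2, Mmp9, Mmp13, Mmp14 and Mmp19, of which Mmp2 was a trace of 2.09 CPM. Within cluster 16 without its cells led by neutrophil genes (41 control cells), Mmp9, Mmp14 and Mmp19 were higher, and Mmp2 and Mmp13 were not called. The shares of all genes are those of the whole class and not of this part. Fibroblast markers summed to 76.8, 220 and 85.0 CPM in this class, and their part in the Mmp2 trace was not tested. Between scratch-positive and scratch-negative 1 of 7 was higher (27.5%) and 4 lower (10.4%), against 37.9% of all genes called either way, and between scratch-positive and control 3 of 5 were higher (26.7%) and 0 lower (12.2%). Neutrophils had 4 of 7 members higher in scratch-negative than in control (4.94%) and 0 lower (7.16%), 2 of 7 higher (9.59%) and 1 lower (3.68%) in scratch-positive against scratch-negative, and 4 of 6 higher (13.2%) and 0 lower (13.5%) against control. The members called in neutrophils were all traces of at most 2.30 CPM. Markers of fibroblasts summed to 101, 243 and 124 CPM in neutrophils of control, scratch-negative and scratch-positive, and their part in these traces was not tested.

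**Figure D2:**
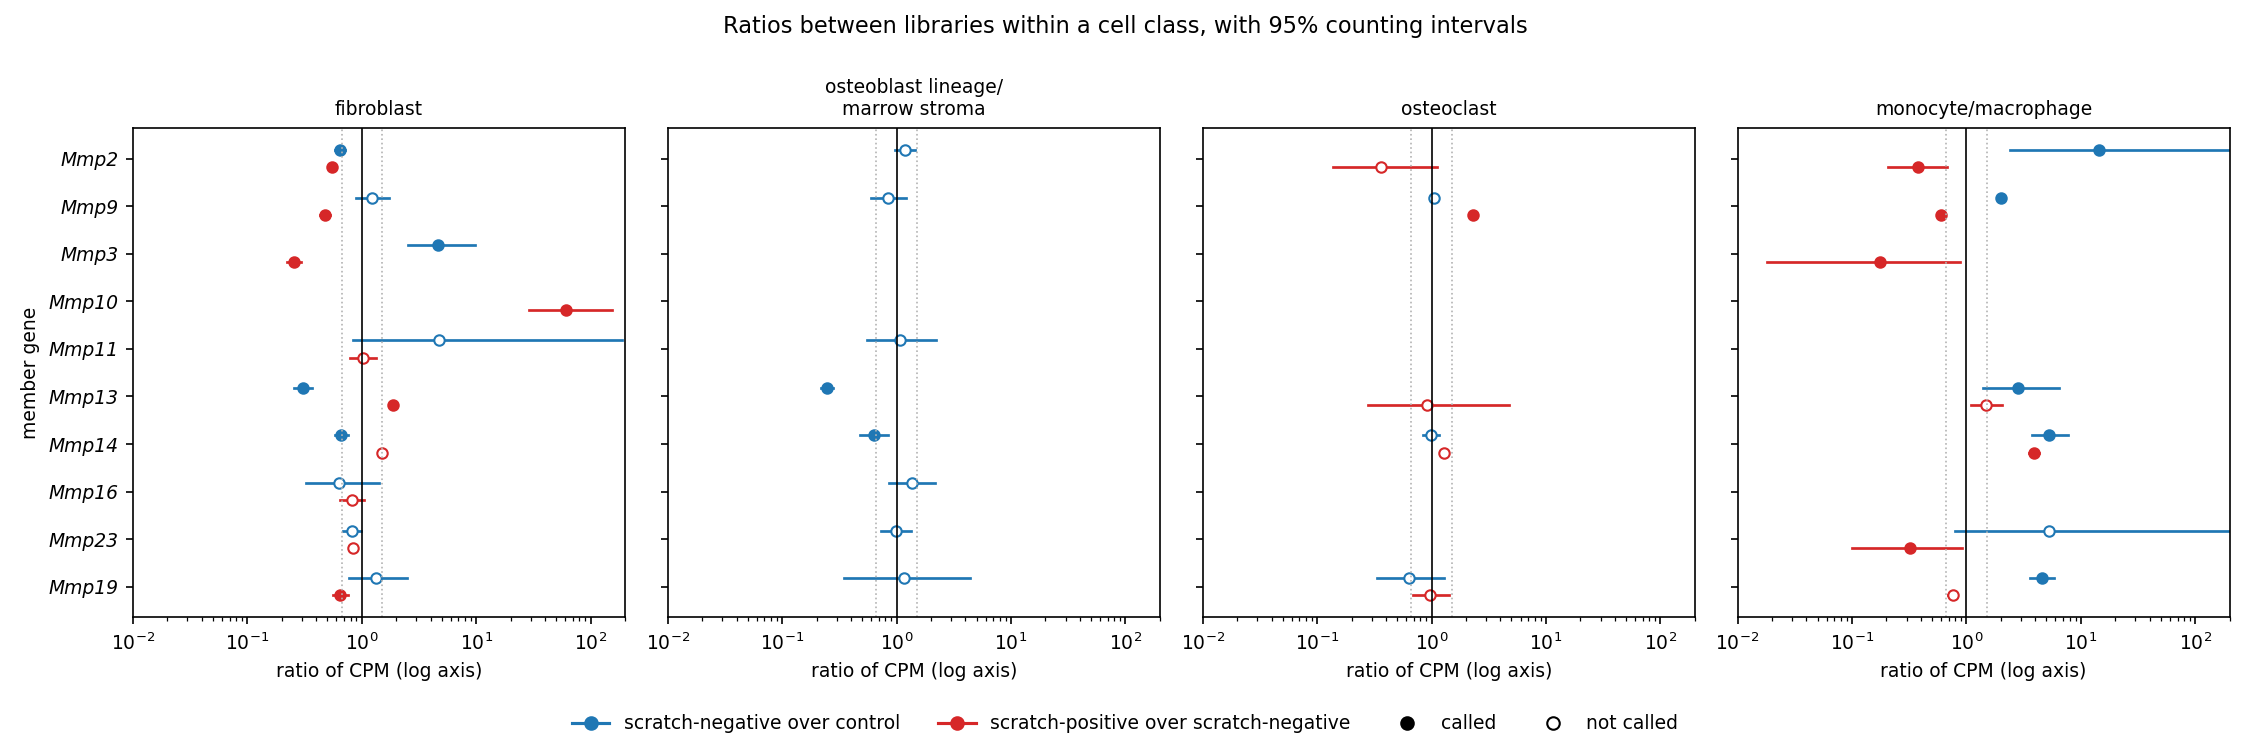
Ratio of each member's level between libraries on a log axis in 4 classes, scratch-negative over control in blue and scratch-positive over scratch-negative in red; bars are 95% counting intervals, filled points are called, dotted lines mark 1.5-fold, and intervals that run past the axis end at its edge. In fibroblasts Mmp13 lies left of 1 in blue and right of it in red, Mmp3 the other way round, and in osteoclasts Mmp9 is the called member, at 2.30-fold.

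Mmp2 encodes a gelatinase that cuts denatured collagen and basement membrane collagen after activation at the cell surface. In fibroblasts it stood at 734 CPM in control (419 UMIs, interval 665 to 807), 471 CPM in scratch-negative (8310 UMIs, 461 to 481) and 258 CPM in scratch-positive (3276 UMIs, 250 to 267). The 3 libraries form a descending series in which no intervals overlap. Scratch-negative was 1.56-fold lower than control (1.41 to 1.72), scratch-positive 1.82-fold lower than scratch-negative (1.75 to 1.90) and 2.84-fold lower than control (2.56 to 3.14). Among fibroblasts with at least 5000 UMIs, each thinned to 5000, 95.3%, 81.9% and 60.0% held a UMI of Mmp2. At full depth the shares were 71.0%, 93.2% and 93.6% of all fibroblasts. Only 43 of 69 control fibroblasts were deep enough, against 559 of 590 and 425 of 438. The thinned shares thus cover a selected part of the control cells. The call between scratch-negative and control was lost with equal weight per cell (log2 ratio -0.08 in place of -0.64), without the 3 richest cells per library (-0.49), with a gene minimum of 200 (-0.51), at clustering resolution 0.5 (-0.54) and in cells without Ptprc (-0.55). All 69 control fibroblasts belonged to cluster 13 (led by Mgp and Sfrp2), which held 238 and 132 cells of the tumour libraries, while 352 and 306 of their fibroblasts were in cluster 29 (Tagln, Rarres2, Col3a1, Lox, Tnc), with no control cell. Within cluster 13 Mmp2 was at 734, 666 and 450 CPM. The step from control to scratch-negative was not called there, nor was that from scratch-negative to scratch-positive, and scratch-positive was 1.63-fold lower than control (1.45 to 1.82). Within cluster 29 Mmp2 was at 418 CPM in scratch-negative and 210 CPM in scratch-positive, 1.99-fold lower. At a finer clustering, 327 of the 352 scratch-negative cells of cluster 29 were in cluster 37. Of its 306 scratch-positive cells, 264 were in the finer cluster 41. Ratios within cluster 29 thus compare mostly different finer clusters.

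Most Mmp2 molecules were in the stroma, with fibroblasts holding 70.2%, 93.5% and 89.6% of its UMIs. In the osteoblast lineage it was at 200 CPM in control (170 to 235) and 236 CPM in scratch-negative (209 to 266), a ratio of 1.18 (0.965 to 1.45) that was not called. In carcinoma cells its level was 1.78 CPM in scratch-negative and 0.960 CPM in scratch-positive, and in monocytes/macrophages 0.147, 2.09 and 0.792 CPM. These traces were called (carcinoma 1.86-fold lower, 1.19 to 2.79, and monocytes/macrophages 14.3-fold higher in scratch-negative than in control, 2.40 to 579), but they rest on 26 and 240 UMIs, and on 1 and 35 UMIs. Without the 3 carcinoma cells with the most Mmp2 UMIs in each library, the log2 ratio moved from -0.89 to -0.26. Fibroblast markers summed to 217 and 43.8 CPM in carcinoma cells, lower in the same library as Mmp2, and were highest in scratch-negative among monocytes/macrophages, and their part in these traces was not tested.

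Mmp9, on chromosome 2 at 164940780 to 164955850 (plus strand), encodes the other gelatinase and is a known product of osteoclasts and of neutrophil granules. In osteoclasts it was at 1352 CPM in control (1332 UMIs), 1417 CPM in scratch-negative (5480 UMIs) and 3257 CPM in scratch-positive (105027 UMIs). Scratch-positive stood apart from the other libraries, whose intervals overlapped (1280 to 1427 and 1379 to 1455). It was 2.30-fold above scratch-negative (2.24 to 2.36) and 2.41-fold above control (2.28 to 2.54). Without the 3 osteoclasts per library with the most Mmp9 UMIs, the log2 ratio over control moved from 1.27 to 1.94; control had 26 osteoclasts. Thinned to 5000 UMIs a cell, 68.0% of control osteoclasts held a UMI of Mmp9 (46.5 to 85.1), 69.9% in scratch-negative (58.8 to 79.5) and 92.8% in scratch-positive (90.9 to 94.4), against 92.3%, 86.9% and 97.1% unthinned. In B-lineage cells the thinned shares were 17.6% and 16.7% in control and scratch-negative. The summed level of the 9 osteoclast markers moved the same way, from 9079 and 9836 CPM to 18658 CPM, while that of the neutrophil markers moved the other way, from 48132 and 59891 CPM to 5678 CPM. The part of either in the Mmp9 difference was not tested.

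The cells that carry Mmp9 molecules were not the same in the 3 libraries. In control 91.2% of its UMIs were in neutrophils, in scratch-negative 69.2%, with 13.0% in monocytes/macrophages. In scratch-positive 79.9% were in osteoclasts and 9.06% in neutrophils. This shift includes the cell numbers, since osteoclasts numbered 26, 84 and 870. The neutrophil shares also leave out the unnamed cluster 3, which best matched neutrophils and held mostly cells of the tumour libraries. Within neutrophils Mmp9 was at 973, 912 and 780.5 CPM (964 to 981, 904 to 920 and 767 to 795). The intervals do not overlap, but the ratios of 0.938, 0.856 and, over control, 0.802 did not reach 1.5-fold. The level differed among neutrophil clusters. The cluster led by histone genes (cluster 5) was lowest at 167, 136 and 118 CPM, and cluster 1 was at 2072, 2049 and 1908 CPM. Cluster 2 was at 2011, 2063 and 1800 CPM, and cluster 0 at 1698, 1501 and 935.5 CPM.

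In monocytes/macrophages Mmp9 was at 280 CPM in control (1907 UMIs, 268 to 293), 565 CPM in scratch-negative (9450 UMIs, 554 to 577) and 341 CPM in scratch-positive (8179 UMIs, 334 to 348). Scratch-negative was highest, 2.02-fold above control (1.92 to 2.12), and scratch-positive was 1.66-fold below it (1.61 to 1.71). Neutrophil markers summed to 253124, 282280 and 133109 CPM in this class. Part of that came from a finer cluster led by neutrophil genes (Fcnb; 70, 159 and 79 cells), and without it the sums were 97286, 209367 and 107855 CPM. Mmp9 was then at 216, 644 and 357 CPM, 2.98-fold higher in scratch-negative than in control and 1.80-fold lower in scratch-positive than in scratch-negative. Scratch-positive was then also called above control, at 1.65-fold. The cells led by neutrophil genes all lay in cluster 16, and without them Mmp9 was there at 422, 706 and 362 CPM, 1.68-fold higher in scratch-negative than in control. In the finer macrophage cluster (26, 367 and 636 cells) the levels were 206, 739 and 392 CPM, with the same library on top.

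In fibroblasts Mmp9 was at 71.8, 88.1 and 42.0 CPM, near its level in B-lineage cells. Scratch-positive was 2.10-fold lower than scratch-negative (1.90 to 2.32) and 1.71-fold lower than control (1.21 to 2.35). In carcinoma cells it was at 46.2 CPM in scratch-negative (42.8 to 49.8) and 11.7 CPM in scratch-positive (11.2 to 12.1), 3.96-fold lower (3.64 to 4.31). The carcinoma class sat in different clusters in the tumour libraries: cluster 25 (Gbp2, Igtp, Iigp1) held 156 of the 208 scratch-negative cells and 255 of the 3783 scratch-positive cells, and clusters 24, 27 and 28 held 1064, 1597 and 867 of the latter but 13, 28 and 11 of the former. Within cluster 25 Mmp9 was 3.15-fold lower in scratch-positive (2.70 to 3.69), and within cluster 27 it was 5.96-fold lower (4.94 to 7.14). Neutrophil markers moved with these differences, as given above. Mmp8, the neutrophil collagenase, did so too, at 84.1, 62.3 and 13.1 CPM in fibroblasts and 38.8 and 1.96 CPM in carcinoma cells. Cells with a Ptprc UMI made up 8.70%, 23.7% and 6.62% of fibroblasts, and 38.9% and 8.67% of carcinoma cells. Among the 63, 450 and 409 fibroblasts with 0 Ptprc UMIs, the log2 ratio of scratch-positive over scratch-negative was 0.88 in place of -1.07, so the direction was the opposite. Within cluster 13 alone Mmp9 was at 71.8, 98.9 and 94.5 CPM with no call.

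**Figure D3:**
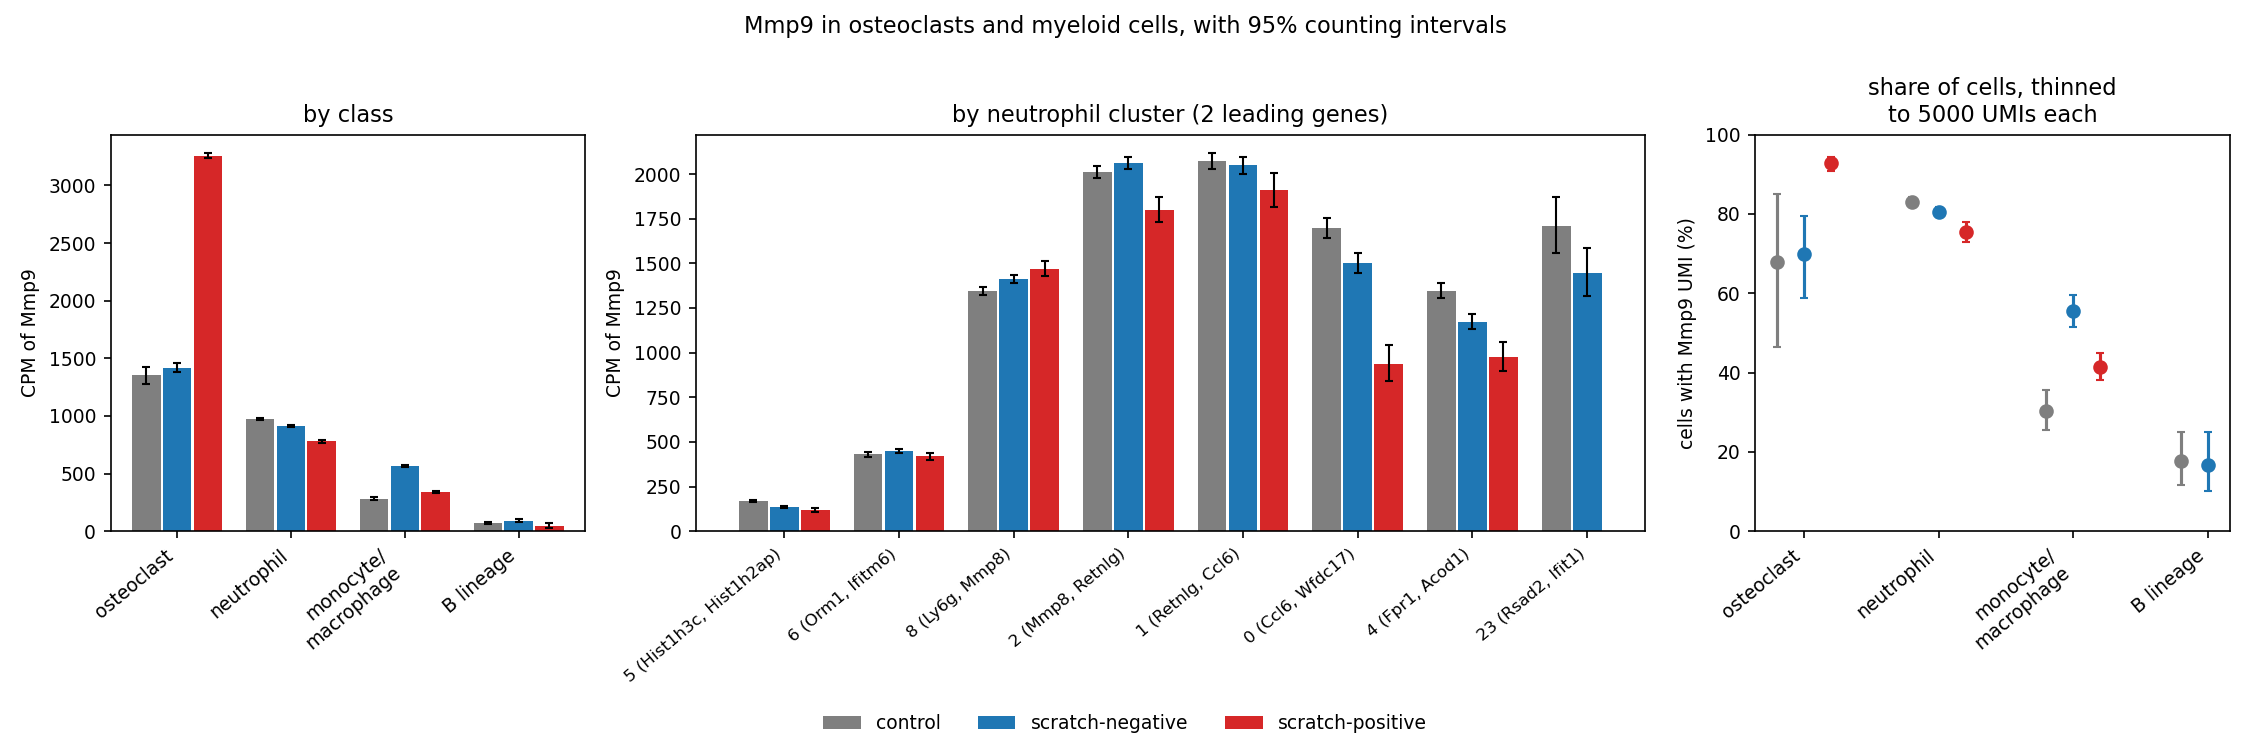
Mmp9 in CPM by cell class and library, by neutrophil cluster and library, and as the percent of cells with an Mmp9 UMI after thinning to 5000 UMIs a cell (points); bars start at 0 and error bars are 95% counting intervals. Osteoclasts of scratch-positive stand above all other classes at 3257 CPM, while among neutrophils the cluster led by histone genes is lowest in each library.

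Mmp3, Mmp10 and Mmp11 encode stromelysins, enzymes that cut proteoglycans and glycoproteins; Mmp3 and Mmp10 can also activate other proenzymes, and Mmp11 has a furin site. In fibroblasts Mmp3 was at 17.5 CPM in control (10 UMIs, 8.40 to 32.2), 81.6 CPM in scratch-negative (1439 UMIs, 77.4 to 85.9) and 20.9 CPM in scratch-positive (265 UMIs, 18.5 to 23.6). Only the scratch-negative library was high. It was 4.66-fold above control (2.53 to 9.73), and scratch-positive was 3.90-fold below it (3.42 to 4.47). The molecules sat in few cells: 90 of 590 scratch-negative fibroblasts held a UMI, and 8 of them carried 50% of the UMIs. Control had 5 such cells of 69 and scratch-positive 66 of 438. Without the 3 cells per library with the most Mmp3 UMIs, the log2 ratio of scratch-negative over control moved from 2.22 to 4.01. That step leaves out 3 of the 5 control cells with Mmp3, so the control level rests on very few cells.

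The Mmp3 of scratch-negative came mainly from 1 small group of fibroblasts. At a finer clustering, also made without Mmp genes, this was cluster 30, led by Clec3b, Myoc, Dcn, Dpt and Pi16. It held 72 scratch-negative fibroblasts, and also 14 of control and 19 of scratch-positive, which are under the 20 cells set for a level. Mmp3 reached 925 CPM in the scratch-negative cells (867 to 986), and its 948 UMIs were 65.9% of those in scratch-negative fibroblasts. Mmp13 had 0 UMIs in these cells, Mmp2 was at 782 CPM and Mmp19 at 57.6 CPM. All 10 Mmp3 UMIs of control fibroblasts were in the 14 control cells of cluster 30. In the finer cluster 13 (34, 126 and 96 cells) Mmp3 was at 0, 42.4 and 10.5 CPM. In the main cluster 13 it was at 17.5, 279.5 and 15.3 CPM, 16.0-fold above control in scratch-negative (8.64 to 33.4) and 18.3-fold lower again in scratch-positive (13.3 to 25.9). In cluster 29 the levels of 28.3 and 22.3 CPM were not called different. A cluster made mostly of 1 library may reflect that library.

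Mmp10 was almost absent from fibroblasts outside the scratch-positive library. Its UMIs numbered 0 in control (upper limit of the interval 6.46 CPM), 7 in scratch-negative (0.397 CPM, 0.160 to 0.817) and 307 in scratch-positive (24.2 CPM, 21.6 to 27.1). Scratch-positive was 61.0-fold above scratch-negative (29.3 to 153) and at least 4.61-fold above control with control set at 3 UMIs, while the counting interval of that ratio starts at 3.73. The gene was detected in 0 of 69 control fibroblasts (3 cells, the limit taken for a count of 0, would be 4.35%), in 3 of 590 and in 50 of 438, with 9 cells holding 50% of the scratch-positive UMIs. Control fibroblasts were also the shallowest, at a median of 8327 UMIs, and the limit holds for cells with a UMI and not cells expressing the gene. Both main clusters gave the same direction. In cluster 13 the levels were 0, 0 and 22.4 CPM, at least 27.9-fold above scratch-negative set at 3 UMIs (interval from 21.9), and in cluster 29 they were 0.504 and 24.7 CPM, 49.0-fold higher (23.4 to 123). At the finer clustering 249 of the 307 UMIs (81.1%) were in cluster 41 (Tagln, Gzmd, Acta2; 25 scratch-negative and 264 scratch-positive cells), at 0.810 and 28.4 CPM.

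In carcinoma cells Mmp10 was at 1.51 CPM in scratch-negative (22 UMIs, 0.945 to 2.28) and 1.66 CPM in scratch-positive (414 UMIs, 1.501 to 1.82), a ratio of 1.10 (0.716 to 1.77). At this low level carcinoma cells still held 56.0% of all Mmp10 UMIs of scratch-positive, and fibroblasts 41.5%. Carcinoma cluster 27, led by Pthlh and Krt17, was at 4.47 CPM in scratch-negative and 3.12 CPM in scratch-positive (316 UMIs). The other carcinoma clusters of scratch-positive were at 0.445, 0.520 and 0.875 CPM. Mmp3 in carcinoma cells was at 2.60 and 1.86 CPM (ratio 0.716, 0.514 to 1.02), yet these cells held 62.6% of the Mmp3 UMIs of scratch-positive. Carcinoma cells were the most numerous class there (3783 of 8426 cells) and deep, at a median of 63173 UMIs against 28197.5 in fibroblasts. They held 249920317 of the 346478687 UMIs of all genes in the kept cells of scratch-positive.

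Mmp11 was at 1.75, 8.28 and 8.52 CPM in fibroblasts (1, 146 and 108 UMIs), with a ratio of 4.73 over control whose interval ran from 0.835 to 188. The single control molecule leaves that comparison undecided, and the tumour libraries had a ratio of 1.03 (0.795 to 1.33). Within cluster 13 the levels were 1.75, 13.4 and 15.7 CPM, and scratch-negative was 7.63-fold above control (1.31 to 307). Mmp11 in the osteoblast lineage was at 19.6 CPM in control (11.0 to 32.4) and 21.2 CPM in scratch-negative (13.7 to 31.3), overlapping. In carcinoma cells it was at 3.15 and 2.82 CPM (ratio 0.895, 0.664 to 1.23), and these cells held 83.6% of its UMIs in scratch-positive.

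Mmp13 encodes the main interstitial collagenase of rodents, which cuts fibrillar collagen of bone and cartilage. Its highest level was in the osteoblast lineage, at 1407 CPM in control (1074 UMIs, 1324 to 1493) and 346 CPM in scratch-negative (408 UMIs, 313 to 381). The libraries did not overlap, and scratch-negative was 4.07-fold lower (3.63 to 4.57). The cells with an Mmp13 UMI were 31 of 61 and 30 of 61, or similar shares, but 4 control cells and 3 scratch-negative cells held 50% of the UMIs. With doublets removed by the threshold that the doublet caller Scrublet set itself, the log2 ratio was -0.90 in place of -2.02, and with each cell weighted equally it was -1.06. Neutrophil markers summed to 22023 and 58173 CPM in this class, and their part in the difference was not tested.

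In fibroblasts Mmp13 was at 229 CPM in control (131 UMIs, 192 to 272), 70.0 CPM in scratch-negative (1235 UMIs, 66.2 to 74.0) and 131 CPM in scratch-positive (1665 UMIs, 125 to 138). Scratch-negative was lowest, 3.28-fold below control (2.72 to 3.93). Markers of the osteoblast lineage summed to 2818, 515 and 275 CPM in fibroblasts of the 3 libraries, and their part in the control level was not tested. Scratch-positive was 1.88-fold above scratch-negative (1.74 to 2.02) and 1.75-fold below control (1.45 to 2.09). Cells with a UMI were 19 of 69, 51 of 590 and 104 of 438, and 4 cells held 50% of the scratch-negative UMIs and 12 those of scratch-positive. Without the 3 cells per library richest in Mmp13, the log2 ratio of scratch-positive over scratch-negative moved from 0.91 to 1.61, and that over control from -0.80 to -0.28, below the 1.5-fold limit.

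The levels of Mmp13 separate by kind of fibroblast. Within cluster 13 it was at 229, 328 and 427 CPM, so control was the lowest library there, and not the highest as over the class. Scratch-negative over control was 1.43-fold there (1.19 to 1.73) and not called, and scratch-positive was called above control at 1.86-fold (1.55 to 2.25). Within cluster 29 it was at 0.504 CPM in scratch-negative (7 UMIs) and 57.0 CPM in scratch-positive (577 UMIs), 113-fold higher (54.6 to 283). At the finer clustering cluster 13 (Mgp, Sfrp2) held 73.0% of the Mmp13 UMIs of scratch-negative fibroblasts and 58.4% of those of scratch-positive, at 280, 390 and 464 CPM (231 to 337, 365 to 416 and 435 to 494). A further 26.5% of the scratch-negative UMIs were in the finer cluster 14, which is led by the mural genes Rgs5 and Des, stayed unnamed, and stood at 476 CPM in control and 806 CPM in scratch-negative (21 and 39 cells). Without it, Mmp13 was at 212, 52.7 and 126 CPM, 4.02-fold lower in scratch-negative than in control and 2.38-fold higher in scratch-positive than in scratch-negative. The finer cluster 37 (Rarres2, Lox) was at 0.553 CPM in scratch-negative (327 cells) and 6.88 CPM in scratch-positive (41 cells). The finer cluster 41 was at 0 and 64.7 CPM, and its 568 UMIs were 34.1% of those of scratch-positive fibroblasts.

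**Figure D4:**
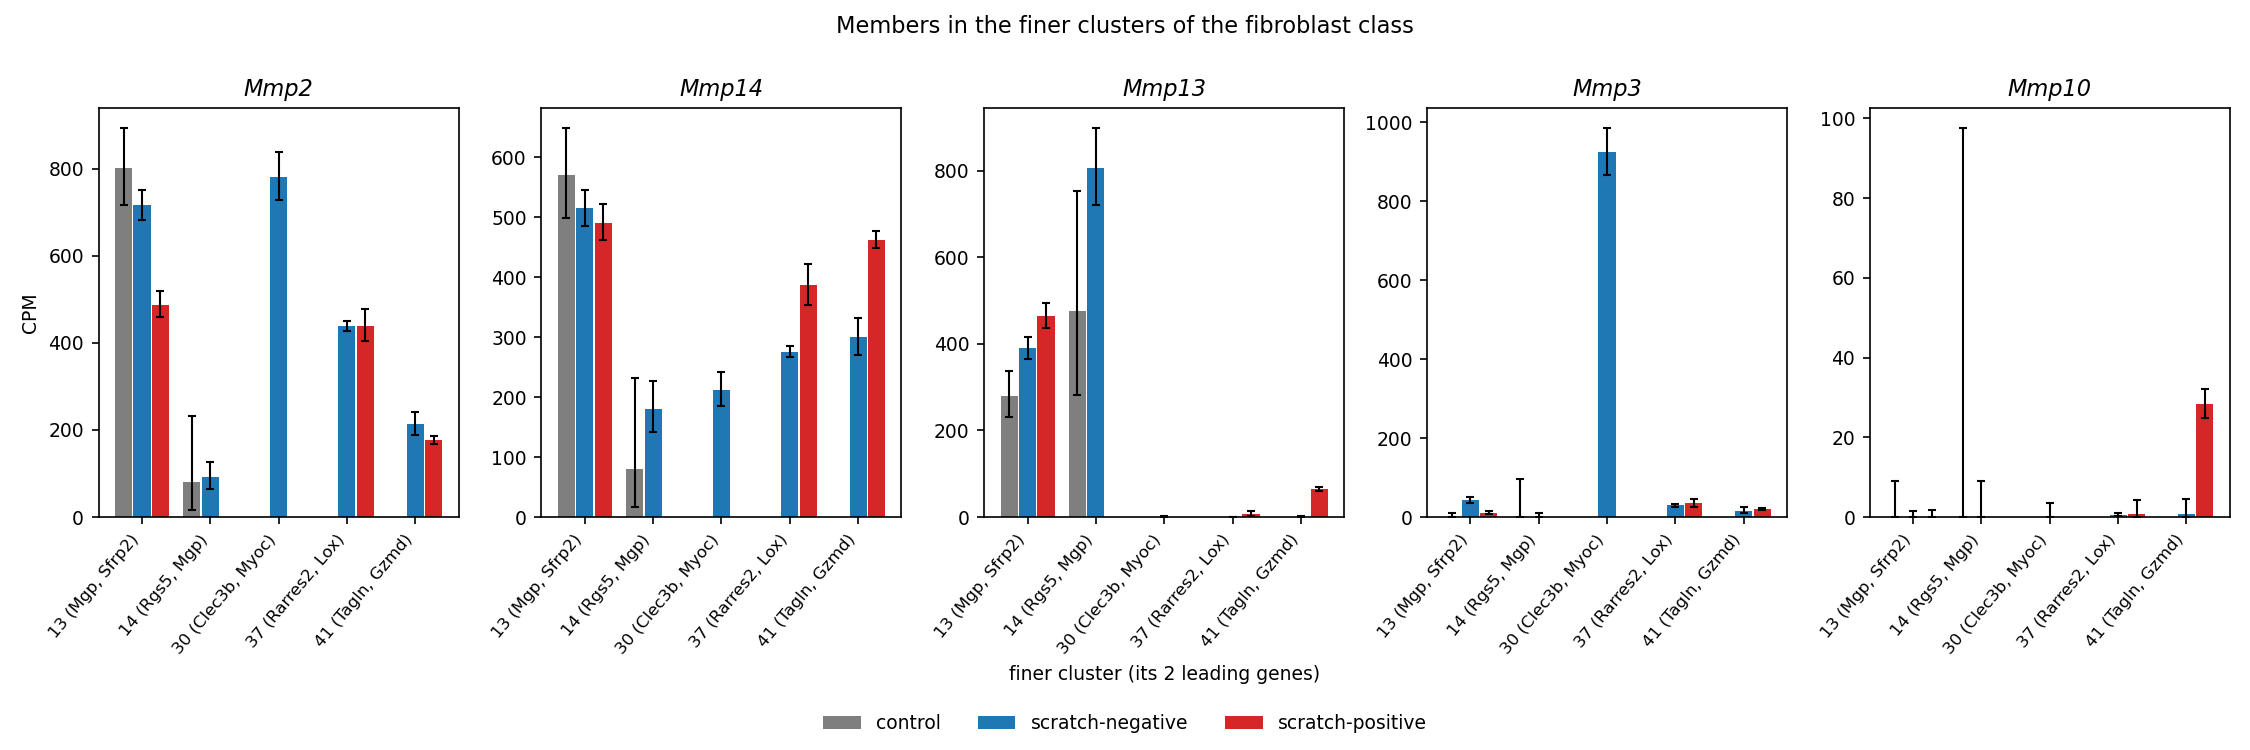
Level in CPM of Mmp2, Mmp14, Mmp13, Mmp3 and Mmp10 in the finer fibroblast clusters 13, 14, 30, 37 and 41 by library; bars start at 0, error bars are 95% counting intervals, and a bar is drawn where the library had at least 20 cells. Mmp3 stands out in cluster 30 of scratch-negative (925 CPM), Mmp10 in cluster 41 of scratch-positive (28.4 CPM), and Mmp13 in clusters 13 and 14, while Mmp14 is present in every cluster.

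Cells that held molecules of more than 1 of the chromosome 9 genes were counted in fibroblasts. In scratch-negative 90 cells held a UMI of Mmp3 and 51 one of Mmp13, with 6 cells holding both. In scratch-positive 50 cells held Mmp10 and 104 held Mmp13, with 19 holding both, 18 held both Mmp3 (66 cells) and Mmp10, and 16 both Mmp3 and Mmp13. Such counts depend on depth, which was similar in the tumour libraries (medians of 28158.5 and 28197.5 UMIs in fibroblasts) and lower in control (8327).

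In carcinoma cells Mmp13 was at 3.50 CPM in scratch-negative (51 UMIs, 2.60 to 4.60) and 5.11 CPM in scratch-positive (1276 UMIs, 4.83 to 5.39), a ratio of 1.46 (1.10 to 1.97) just under the limit. That ratio compares mostly different clusters: within cluster 25 it was 1.66 (1.08 to 2.60), called higher, and within cluster 27 it was 1.22 (0.738 to 2.20). Within scratch-positive, cluster 27 was again the highest at 9.11 CPM, and the other carcinoma clusters were at 1.83, 4.51 and 2.34 CPM. Counted over all cells, the source of Mmp13 molecules differed between libraries. In control 86.5% of its UMIs were in the osteoblast lineage, and in scratch-negative 68.8% were in fibroblasts. In scratch-positive 47.7% were in fibroblasts, 36.5% in carcinoma cells and 10.4% in the 15 cells of the osteoblast lineage. These shares include the cell numbers and depth of each class. In monocytes/macrophages Mmp13 was at 1.32, 3.71 and 5.50 CPM (9, 62 and 132 UMIs), 2.81-fold higher in scratch-negative than in control (1.39 to 6.43). With each cell weighted equally that log2 ratio turned from 1.46 to -0.35, and within cluster 16 without the cells led by neutrophil genes to -0.54.

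Mmp14 encodes a membrane-anchored enzyme that cuts collagen at the cell surface and activates proMmp2. In fibroblasts it was at 457 CPM in control (261 UMIs, 403 to 516), 303 CPM in scratch-negative (5344 UMIs, 295 to 311) and 454 CPM in scratch-positive (5758 UMIs, 442 to 466). Control and scratch-positive overlapped, with a ratio of 0.994 (0.878 to 1.13), and scratch-negative lay below both. It was called 1.51-fold lower than control (1.33 to 1.71), a value close to the limit, and scratch-positive over scratch-negative was 1.499-fold (1.44 to 1.56), just short of it. The call below control was lost with equal weight per cell (log2 ratio -0.20 in place of -0.59), without the 3 richest cells per library (-0.40), with a gene minimum of 200 (-0.44), at resolution 0.5 (-0.48) and with the 50 top genes left out of the total (-0.58). Within cluster 13 the levels were 457, 395 and 463 CPM with no call. Within cluster 29 Mmp14 was at 278 and 452 CPM, 1.63-fold higher in scratch-positive (1.56 to 1.70), again between mostly different finer clusters. The thinned share of fibroblasts with a UMI was 76.7%, 67.3% and 83.5%, again lowest in scratch-negative. It covers the 43, 559 and 425 fibroblasts with at least 5000 UMIs. Unthinned, the share was 62.3%, 90.7% and 95.9% of all fibroblasts, lowest in control.

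Osteoclasts were the next class for Mmp14, at 215 CPM in control (212 UMIs, 187 to 246), 212 CPM in scratch-negative (820 UMIs, 198 to 227) and 271 CPM in scratch-positive (8725 UMIs, 265 to 276). Scratch-positive lay above both without reaching the limit, at 1.28-fold over scratch-negative (1.19 to 1.37) and 1.26-fold over control (1.10 to 1.45). Mmp14 in the osteoblast lineage was at 134 CPM in control (109 to 162) and 84.7 CPM in scratch-negative (68.9 to 103), 1.58-fold lower (1.18 to 2.10). That call was lost with Scrublet's own threshold, at a log2 ratio of -0.01 in place of -0.65. In carcinoma cells Mmp14 was at 67.7 CPM (63.6 to 72.1) and 70.2 CPM (69.2 to 71.3), a ratio of 1.04 (0.973 to 1.11), and 86.5% and 90.4% of them held a UMI (26.9% and 28.3% thinned). Carcinoma cluster 27 was at 84.3 CPM in scratch-positive and the others at 55.5, 64.0 and 64.3 CPM. Carcinoma cells held 50.5% of the Mmp14 UMIs of scratch-positive, and 249920317 of its 346478687 UMIs of all genes.

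Monocytes/macrophages had the largest relative difference of Mmp14. The level was 4.85 CPM in control (33 UMIs, 3.34 to 6.80), 25.7 CPM in scratch-negative (429 UMIs, 23.3 to 28.2) and 99.5 CPM in scratch-positive (2387 UMIs, 95.5 to 104). The libraries form an ascending series without overlap, and the control level was near that of B-lineage cells. Scratch-negative was 5.30-fold above control (3.71 to 7.80), scratch-positive 3.88-fold above scratch-negative (3.50 to 4.31) and 20.5-fold above control (14.6 to 29.9). Without the 3 cells per library richest in Mmp14 the log2 ratio of scratch-negative over control moved from 2.40 to 3.97. The 33 control UMIs sat in few cells, so the larger ratio shows a loose control level and not a firmer difference. The share of cells with a UMI was 2.08%, 25.6% and 62.2%, and 1.43%, 12.6% and 29.2% after thinning. In B-lineage cells the shares were 4.55%, 7.23% and 0 of 33.

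The class differs in composition between libraries. Cluster 15 (F13a1, Ccr2) held 273, 136 and 54 cells and most of control, and cluster 16 (C1qb, H2-Aa) held 111, 567 and 858 and most of the tumour libraries. The finer cluster led by neutrophil genes lay entirely within cluster 16, where it made up 70 of the 111 control cells, 159 of 567 and 79 of 858. Cluster 15 had 1, 5 and 3 UMIs of Mmp14. Within cluster 16 Mmp14 was at 7.55, 27.6 and 101.5 CPM, 3.65-fold above control in scratch-negative (2.55 to 5.41) and 3.68-fold higher again in scratch-positive (3.32 to 4.09). Without the cells led by neutrophil genes, cluster 16 held 41, 408 and 779 cells and Mmp14 was at 21.3, 39.3 and 111 CPM. Scratch-negative was then 1.84-fold above control (1.13 to 3.20), scratch-positive 2.83-fold above scratch-negative (2.53 to 3.19) and 5.23-fold above control (3.26 to 8.99). At the finer clustering the macrophage cluster was at 15.1, 39.9 and 119 CPM and the monocyte cluster (282, 139 and 57 cells) at 4.13, 3.55 and 7.39 CPM. A dendritic cluster was at 40.8 and 53.3 CPM in the tumour libraries. Without the finer cluster led by neutrophil genes the class was at 5.34, 34.5 and 109 CPM. Osteoclast markers summed to 56.8, 58.6 and 452 CPM in monocytes/macrophages, with Calcr at 0 in every library, and their part in the scratch-positive level was not tested.

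Mmp16 encodes another membrane-anchored enzyme (chromosome 4, 17852893 to 18119145, plus strand), and Mmp23 one that is held in the membrane by its propeptide until it is cut. Mmp16 was at 15.8, 10.0 and 8.28 CPM in fibroblasts (9, 177 and 105 UMIs), with no call over the class. Within cluster 13, scratch-positive was 2.15-fold lower than scratch-negative. In the osteoblast lineage it was at 39.3 CPM in control (26.5 to 56.1) and 53.4 CPM in scratch-negative (41.0 to 68.3), a ratio of 1.36 (0.866 to 2.17). No UMI of Mmp16 was found in osteoclasts of any library.

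Mmp23 was at 224 CPM in fibroblasts of control (187 to 267), 184 CPM in scratch-negative (177 to 190) and 155 CPM in scratch-positive (148 to 162). The order is that of Mmp2, but no step reached the limit: the ratios were 0.819 (0.686 to 0.985), 0.842 (0.796 to 0.891) and, for scratch-positive over control, 0.690 (0.577 to 0.832). Osteoblast-lineage cells had 96.9 and 94.9 CPM, with overlapping intervals. Fibroblasts held 53.1%, 94.5% and 93.9% of its UMIs. In carcinoma cells Mmp23 had 10 and 36 UMIs (0.685 and 0.144 CPM). It was called 4.76-fold lower in scratch-positive (2.11 to 9.79), in the direction of the fibroblast markers, a call that turned around without the 3 cells per library richest in it (log2 ratio 5.17 in place of -2.22).

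Mmp19, on chromosome 10 at 128790910 to 128800824 (plus strand), encodes a secreted enzyme that cuts basement membrane proteins. In monocytes/macrophages it was at 12.0 CPM in control (82 UMIs, 9.58 to 14.9), 54.7 CPM in scratch-negative (915 UMIs, 51.3 to 58.4) and 41.6 CPM in scratch-positive (998 UMIs, 39.1 to 44.3). Both tumour libraries lay above control, by 4.55-fold (3.62 to 5.77) and 3.46-fold (2.76 to 4.38), and the step between them was 0.760 (0.694 to 0.832), not called. The share of cells with a UMI was 12.5%, 40.8% and 40.2%, and 7.16%, 21.3% and 18.75% after thinning; in B-lineage cells the unthinned shares were 0, 0.602% and 0. Within cluster 16 Mmp19 was at 3.78, 56.3 and 41.6 CPM, 14.9-fold above control in scratch-negative (9.12 to 26.2), and within cluster 15 at 25.7, 37.3 and 40.9 CPM. Without the cells led by neutrophil genes, cluster 16 was at 11.3, 85.0 and 44.4 CPM, 7.53-fold above control in scratch-negative (3.94 to 16.5) and 1.91-fold lower again in scratch-positive. Without the finer cluster led by neutrophil genes the class was at 22.3, 78.5 and 44.3 CPM. Scratch-negative was then 3.53-fold above control, and the step to scratch-positive was called, 1.77-fold lower. In fibroblasts Mmp19 was at 22.8, 30.2 and 19.7 CPM, and scratch-positive was 1.53-fold lower than scratch-negative (1.32 to 1.79). That call was close to the limit and was lost, among others, with Scrublet's own threshold (log2 ratio -0.53 in place of -0.61).

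For each member the 3 genes with the most similar pattern were taken by Pearson's r of log2(CPM + 1) over 28 sums of a class in a library, among 13617 genes. The points share libraries, depth and free RNA, and r is given as a description. Mmp2 was closest to the collagen genes Col5a2 (r = 0.988) and Col1a2 (0.978), and Mmp23 to Mfap2 (0.989), a microfibril gene, and Prrx1 (0.987), a transcription factor of mesenchyme. Mmp16 was closest to Cdh2 (0.996) and Col24a1 (0.995), and Mmp13 to Gas6 (0.967), Cyp1b1 and Pdgfrb (both 0.956). Mmp3 was closest to Thbs4 (0.966) and Mmp10 to the granzyme genes Gzme (0.931) and Gzmd (0.919). Mmp9 was closest to the chemokine receptor gene Ccr1 (0.915), Mmp14 to Cd276 (0.918), Mmp19 to Ifi207 (0.908) and Mmp11 to Mrgpre (0.930).

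The inhibitors that face these enzymes were read in the same classes. Values of this list and of the lists that follow are over whole classes. All 69 control fibroblasts were in cluster 13, while cluster 29 held 352 and 306 fibroblasts of the tumour libraries and none of control. The part of this composition in the fibroblast differences of the lists was not tested. The list held Timp1 to Timp4, Reck, a membrane-bound inhibitor, and A2m, a plasma-type trap for proteases. In fibroblasts 0 of 5 tested inhibitors were higher and 4 lower in scratch-positive than in scratch-negative, with a median log2 ratio of -1.34 against 0.01 over all genes (11.3% of all genes higher, 16.6% lower). Timp1 was at 5249 and 2659 CPM, 1.97-fold lower, and Timp3 at 404 and 152 CPM, 2.65-fold lower. Reck was 2.53-fold lower and A2m 4.09-fold lower, while Timp2, which also takes part in the activation of proMmp2 by Mmp14, had a ratio of 1.19 and was not called. Against control, 2 of 5 inhibitors were higher in scratch-positive (12.5% of all genes) and 3 lower (19.4%). In the osteoblast lineage 0 of 6 were higher and 4 lower in scratch-negative than in control (3.39% and 15.2% of all genes, median -0.86 against -0.25), Timp3 by 1.99-fold and Timp4 by 11.3-fold, from 28.8 to 2.54 CPM. This class held 763529 and 1180244 UMIs of all genes in 61 cells each, so the Timp4 levels rest on few molecules. In osteoclasts Timp1 was 2.42-fold higher in scratch-positive than in scratch-negative, and in monocytes/macrophages 1.59-fold higher.

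Genes that activate or dock proenzymes were Furin, the plasminogen activators Plau and Plat, the receptor Plaur, Plg, and the surface proteins Bsg, which induces metalloproteinases, and Cd44, a docking site for Mmp9. In fibroblasts 4 of 6 were higher (7.84% of all genes) and 1 lower (16.2%) in scratch-negative than in control. Plaur was at 82.3 and 175 CPM (2.13-fold higher), Bsg at 567 and 1732 CPM (3.05-fold) and Plau at 56.0 and 15.3 CPM (3.66-fold lower). Between the tumour libraries 0 of 6 were higher (11.3%) and 1 lower (16.6%), Bsg by 1.79-fold. In osteoclasts Furin was at 47.8 CPM in scratch-negative and 135 CPM in scratch-positive, 2.81-fold higher. In monocytes/macrophages 3 of 6 were higher in scratch-negative than in control (9.82% of all genes), and 3 of 6 in scratch-positive than in scratch-negative (27.5%), with Plau 3.11-fold and a further 3.22-fold.

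Of 14 matrix substrates, fibroblasts of scratch-negative had 2 higher and 5 lower than control (7.84% and 16.2% of all genes). Vcan, a large proteoglycan, was 2.45-fold higher and Dcn, decorin, 3.05-fold lower. Dcn is among the leading genes of cluster 13, which held all control fibroblasts, and the part of this in its ratio was not tested. Between scratch-positive and scratch-negative 1 was higher and 3 lower, shares near those of all genes (11.3% and 16.6%). Tnc, tenascin C, was at 653 and 1529 CPM (2.34-fold higher), whereas Col3a1 was 2.03-fold, Dcn 2.94-fold and Fn1 1.60-fold lower. In monocytes/macrophages Spp1, osteopontin, was at 189 and 1312 CPM, 6.96-fold higher in scratch-positive than in scratch-negative. The osteoclast markers Ctsk (3.11 and 180 CPM) and Acp5 (13.8 and 134 CPM) moved the same way in this class, and their part was not tested. Of the 12 other Mmp genes in the tables, 3 of 7 tested in fibroblasts were higher in scratch-positive than in scratch-negative (11.3% of all genes) and 2 lower (16.6%), the latter including Mmp8, at 4.76-fold. Mmp12, the macrophage elastase, was at 0.587, 45.5 and 111 CPM in monocytes/macrophages, 77.4-fold higher in scratch-negative than in control and 2.44-fold higher again in scratch-positive. The control level of Mmp12 is a trace in a class of 6811125 UMIs, so the first fold is loose. Cluster 15 held 273 of the 384 control cells, and cluster 16 held 567 and 858 cells of the tumour libraries. The part of this composition in the Mmp12 differences was not tested.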

How the data were processed

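The deposited values were UMI counts per gene and cell barcode, which per the file headers the authors made in Cell Ranger 6.1.2, with the build mm10 per the submitters' processing notes, from 10x Genomics 3′ libraries per the labels' protocols. The tables held 7490, 8517 and 9504 barcodes and 100089008, 167623741 and 395654008 UMIs in control, scratch-negative and scratch-positive. Everything else was computed here. Barcodes with at least 500 genes and at most 10% mitochondrial UMIs were kept (887, 325 and 335 fell below the gene minimum, and 77, 125 and 204 above the mitochondrial limit). Scrublet's own threshold marked 0.0534%, 0.0117% and 6.32% of barcodes, which in 2 libraries is not a working call, so the highest scores were removed at 0.8% per 1000 barcodes (449, 580 and 723).

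The libraries were clustered together in scanpy 1.11.5 (Python 3.11.15) on the 2000 most variable genes without any Mmp gene (1994 left), with 30 principal components, 15 neighbours and Leiden resolution 1, and finer at 2.0. A cluster was named from at least 3 detected markers, unless its leading genes, its Ptprc share or its low depth left it unnamed. Of 30 clusters 4 stayed unnamed; at the finer resolution 6 of 42 did. Levels carry exact Poisson intervals, ratios exact conditional binomial intervals and shares Clopper-Pearson intervals, except that a share of 0 is given the limit of 3 cells. Against a library at 0 UMIs a fold is a lower bound with 3 UMIs in its place. Thinned shares leave out cells under 5000 UMIs. Calls were checked on counts simulated with counting error only, which does not cover the spread between cells or mice. The members, lists, markers and the minimum of 25 cells were chosen with earlier results of these data known. All members are named; other genes are named as members of the lists, as markers or leading genes of clusters, or by likeness (at least 200 UMIs). Positions are from GENCODE and promoters from RefSeq.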

Additional observations from a re-analysis of the deposited data

Results flagged for a closer look

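Several members were called in opposite directions in different classes under the same contrast. The difference between classes was not tested, and the spread between mice is unknown. For scratch-negative over control, Mmp2 had ratios of 14.3 in monocytes/macrophages, 13.4 in neutrophils and 0.642 in fibroblasts. Under the same contrast Mmp13 was at 2.81 in monocytes/macrophages, 0.305 in fibroblasts and 0.246 in the osteoblast lineage. Mmp14 was at 5.30 in monocytes/macrophages, 5.03 in neutrophils, 0.663 in fibroblasts and 0.634 in the osteoblast lineage. For scratch-positive over scratch-negative, Mmp9 had ratios of 2.30 in osteoclasts, 0.603 in monocytes/macrophages, 0.477 in fibroblasts and 0.252 in carcinoma cells. For scratch-positive over control, Mmp2 was at 4.98 in neutrophils and 0.352 in fibroblasts, and Mmp9 at 2.41 in osteoclasts and 0.586 in fibroblasts. Mmp13 was at 4.16 in monocytes/macrophages, 4.18 in neutrophils and 0.572 in fibroblasts. The neutrophil values of Mmp2, Mmp13 and Mmp14, and the monocyte/macrophage values of Mmp2, rest on traces under 2.5 CPM. Some alternatives in processing turned the sign of Mmp13 over control in monocytes/macrophages and in fibroblasts, and of Mmp9 in fibroblasts under both contrasts. For scratch-negative over control, some also lost the calls of Mmp2 in fibroblasts and of Mmp14 in fibroblasts and the osteoblast lineage. Not all of these opposite directions therefore hold under every setting.

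One signal lay outside the named classes. The unnamed cluster 14 of the main clustering, led by Gzmc, Gzmd, Tagln and Acta2, held 58 scratch-negative and 40 scratch-positive cells. Mmp3 was at 127 CPM there in scratch-negative (40 UMIs) and at 1.14 CPM in scratch-positive.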

How the results depend on the processing

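Over all alternatives, 176 counts of called members stayed within 1.5 times the reported count and 23 did not. Of the log2 ratios 950 stayed within the reported counting interval and 187 moved outside it in the same direction. The levels moved outside it in 234 cases against 648, and the thinned shares in 76 against 84. Of the alternatives, 10 were chosen after seeing the data: both fibroblast clusters alone, the 2 carcinoma clusters with the most scratch-negative cells, the largest monocyte/macrophage cluster with and without its cells led by neutrophil genes, cells without Ptprc, the class without the finer cluster led by neutrophil or by mural genes, and leaving out the 3 cells richest in a member. The causes were not tested. In fibroblasts, scratch-negative over control had 2 members called in place of 4 with a gene minimum of 200, at resolution 0.5, with a 2-fold limit and in the cluster with cells of all libraries. Scratch-positive over scratch-negative had 3 in place of 6 with a 2-fold limit and in that cluster, and scratch-positive over control 2 in place of 4 with a 2-fold limit. The osteoblast lineage had 1 in place of 2 with Scrublet's threshold, a 2-fold limit or without the 3 richest cells, and 5 with equal weight per cell. Carcinoma cells had 1 in place of 3 with a gene minimum of 200 or resolution 2.0, and 5 with equal weight. Osteoclasts over control had 1 in place of 0 in scratch-negative and 2 in place of 1 in scratch-positive with equal weight, and 2 in the latter with no UMI minimum or without the 3 richest cells. Between the tumour libraries osteoclasts had 2 in place of 1 with Scrublet's threshold and 3 with equal weight. With equal weight, monocytes/macrophages of scratch-positive over control had 5 in place of 3, and neutrophils between the tumour libraries 5 in place of 3. Monocytes/macrophages of scratch-negative over control had 3 in place of 5 in the largest cluster without its cells led by neutrophil genes.

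The sign of a called log2 ratio turned in 13 cases. Mmp23 in carcinoma cells was at 0.97 with a gene minimum of 200, 0.61 at resolution 2.0 and 5.17 without the 3 richest cells. Mmp9 in fibroblasts of scratch-positive over control was at 0.23 at resolution 0.5, 0.39 in the cluster with cells of all libraries, 0.037 without Ptprc and 0.15 without the 3 richest cells, and over scratch-negative at 0.88 without Ptprc. Mmp13 in monocytes/macrophages over control was at -0.35 in scratch-negative with equal weight, and at -0.54 and -0.70 in scratch-negative and scratch-positive in the largest cluster without its cells led by neutrophil genes. In the fibroblast cluster with cells of all libraries it was at 0.52 and 0.89 over control in scratch-negative and scratch-positive. No paired analysis was possible because each group has 1 library. Depth limits the control library most, with 69 fibroblasts, 26 osteoclasts and 10 UMIs of Mmp3 in fibroblasts.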

Other observations

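Members also appeared in classes outside the comparisons above. Mmp14 was at 13.0 CPM in erythroid cells of control (156 UMIs in 308 cells, 11.0 to 15.2) and 16.1 CPM in those of scratch-negative (183 UMIs in 231 cells, 13.9 to 18.6), above its 3.92 and 4.99 CPM in B-lineage cells of the same libraries. Mmp11 was at 6.63 CPM in B-lineage cells of control (22 UMIs), 3.45 CPM in scratch-negative (9 UMIs) and 0 in scratch-positive. Mmp9 in granulocyte-monocyte progenitors was at 81.6, 74.3 and 94.1 CPM in control, scratch-negative and scratch-positive, against 68.2, 89.8 and 45.2 CPM in B-lineage cells.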
